A study of Arabidopsis thaliana with 8 samples.

Results

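WRKY and NAC proteins are plant transcription factor families that act in defense, senescence, nutrient uptake and stress responses. A WRKY protein carries the conserved WRKY domain with a zinc finger, which binds the W-box in target promoters, and the family is sorted into groups I, II (a to e) and III by its domains. NAC proteins share an N-terminal NAC domain, and some members are held at a membrane until they are cleaved and move to the nucleus. Jasmonates induce several members of both families in Arabidopsis, and WRKY factors take part in the balance between jasmonate and salicylate responses.

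The genes described here are those whose probe set the array annotation paired with exactly 1 gene carrying a symbol that begins with WRKY, NAC or anac and a number. The rule found 7 probe sets among 22746 analysed, 13513 of which were paired with 1 gene. They comprised 6 WRKY genes, *WRKY6*, *WRKY20*, *WRKY22*, *WRKY42*, *WRKY47* and *WRKY53*, and 1 NAC gene, *NAC014*, each with 1 probe set. RefSeq names 67 WRKY and 81 NAC genes in this way, so these 7 do not stand for their families. The WRKY genes best known from jasmonate and salicylate responses, such as *WRKY33*, *WRKY40* and *WRKY70*, had no probe set paired with them by name. Nor did the jasmonate-related NAC genes *NAC019* and *NAC055*. Whether probe sets without a pairing read these genes was not checked, and they are not described here.

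Transcripts were measured in whole seedlings 4 days old on Affymetrix ATH1 arrays, which read each transcript with a set of short probes. The seedlings were wild-type *Ler* (Landsberg erecta) or *hy5-1*, a mutant of the light signaling bZIP factor HY5 in the *Ler* background, and grew on medium without MeJA or containing 50 μM MeJA (methyl jasmonate, a jasmonate hormone), in darkness or in continuous far-red (FR) light of 1.5 μmol m-2 s-1. Each of the 8 conditions had 1 array, so no ratio between arrays has a replicate check. In whole seedlings, fewer cells that express a gene and less RNA per cell cannot be told apart. The *HY5* transcript itself was not among the named probe sets, and the *hy5-1* label was not checked on it.

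The deposited values, read here as log2, have a median over the 4 arrays of each light of 0 for every probe set. A value of 1 is thus a transcript at 2-fold its median in that light. Values can be compared between arrays of the same light, but neither between lights nor between genes, and how bright a probe set was cannot be read from them. No source used here names the base of the logarithm, and base 2 was assumed.

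Of these genes, *WRKY42* varied most. Over the 4 FR arrays its values spanned 3.21 on the log2 scale, a wider range than that of 90.7% of all probe sets, and over the 4 dark arrays 2.63, wider than 84.4%. The ranges of *WRKY6* were 0.29 under FR light and 0.19 in darkness, and those of *WRKY20* were 0.15 and 0.28, and at most 9.03% of all probe sets had a narrower range in the same light. The median range over all probe sets was 0.87 under FR light and 0.90 in darkness. *WRKY53* had ranges near that median, at 0.95 under FR light and 0.83 in darkness. The range of *WRKY47* was 0.91 under FR light and 1.39 in darkness, the latter wider than that of 66.9% of all probe sets. The range of *WRKY22* was 0.40 under FR light and 0.83 in darkness, and that of *NAC014* was 0.43 and 0.63.

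**Figure D1:**
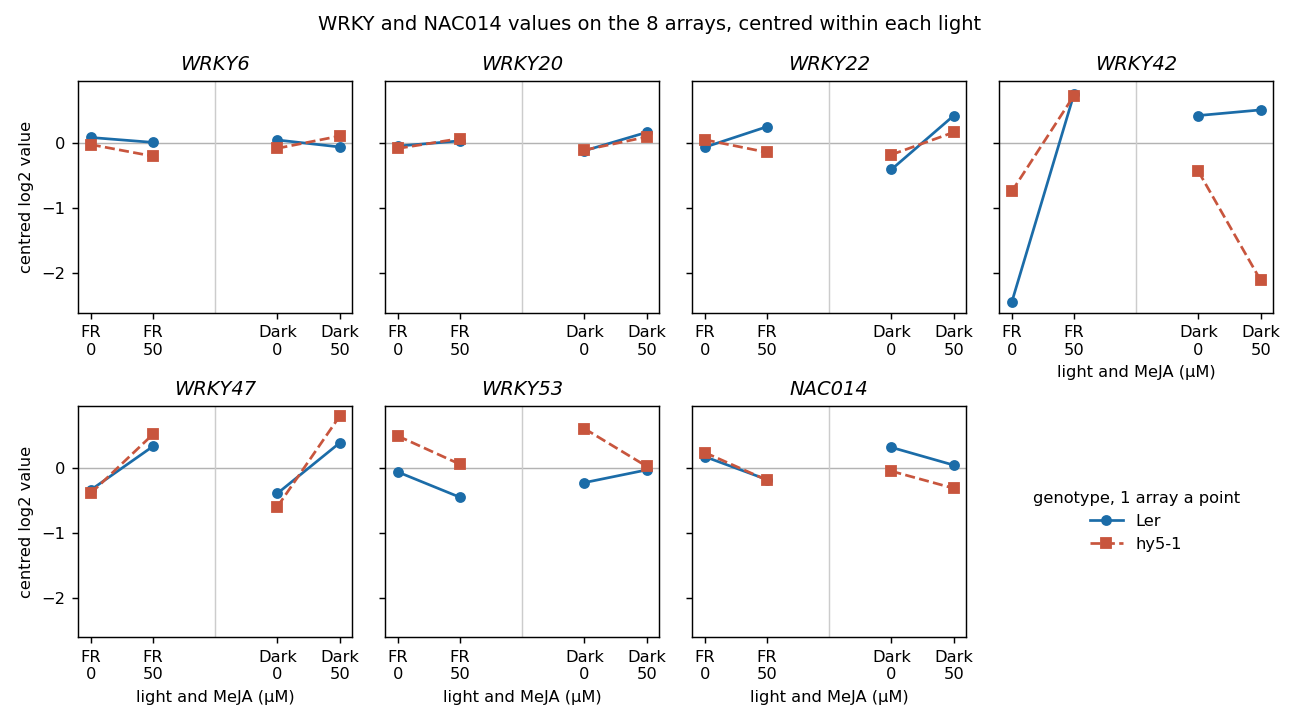
Centred log2 values of the 6 WRKY genes and *NAC014* on the 8 arrays, 1 point an array, by light and MeJA concentration in μM, with lines joining the untreated and treated array of *Ler* (circles) and *hy5-1* (squares). Values are centred on 0 within each light, and *WRKY42* spans 3.21 under FR light and 2.63 in darkness.

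*WRKY42* is a group IIb factor that acts in phosphate homeostasis, where together with *WRKY6* it represses the phosphate exporter gene *PHO1*. Under FR light, its value was -2.45 in untreated *Ler*, -0.74 in untreated *hy5-1*, 0.76 in MeJA-treated *Ler* and 0.74 in MeJA-treated *hy5-1*. The treated seedlings of both genotypes thus had nearly the same value, and the untreated *Ler* array lay far below the rest. In darkness the values were 0.43 in untreated *Ler*, 0.52 in treated *Ler*, -0.43 in untreated *hy5-1* and -2.11 in treated *hy5-1*. Here the treated *hy5-1* array was the low one, and the *Ler* arrays differed little.

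The MeJA to no MeJA log2 ratio of *WRKY42* was therefore 3.21 in *Ler* under FR light, a 9.26-fold difference, and 1.48 in *hy5-1* under FR light, or 2.79-fold. In darkness it was 0.09 in *Ler* and -1.68 in *hy5-1*, a fold of 0.312. Only 3.43% of all probe sets had a larger ratio in either direction in *Ler* under FR light, against 15.0% in *hy5-1* under FR light and 14.5% in dark-grown *hy5-1*. The ratio in *hy5-1* was lower than that in *Ler* by a log2 difference of -1.73 under FR light and -1.77 in darkness. The gap between genotypes thus had nearly the same size in both lights, but each gap rests on a different low array. That array was untreated *Ler* under FR light and treated *hy5-1* in darkness. The same 4 ratios, read between lights, give an excess under FR light over darkness of 3.12 in *Ler* and 3.16 in *hy5-1*, whose closeness follows from that of the genotype gaps. In limma, which takes its error from the pairs of arrays, the difference between genotypes was -1.75 (standard error 0.26, 95% interval -2.71 to -0.79, adjusted p = 0.71) and that between lights was 3.14 (standard error 0.96, interval 0.33 to 5.96, adjusted p = 0.66). Neither passed after adjustment over all probe sets. On simulated data with few changed probe sets, these fits found 0% of log2 changes as large as 4. The share that changed on these arrays is not known, so that rate may not hold here. Not passing does not show that there was no difference. The error of 0.26 had 1 residual degree of freedom and was moderated over all probe sets. Over the 7 genes the error of this fit ran from 0.26 for *WRKY22* to 0.35 for *WRKY53*. For *WRKY42*, whose genotype gaps nearly matched, it thus mostly reflects that moderation, and not replicate arrays.

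Compared between genotypes, *WRKY42* was higher in *hy5-1* than in *Ler* under FR light without MeJA, with a log2 ratio of 1.71 (3.27-fold), and the ratio was -0.02 with MeJA. In darkness the *hy5-1* to *Ler* ratio was -0.86 without MeJA and -2.63 with MeJA, a fold of 0.161. The largest ratios of *WRKY42* each rest on 1 low array, untreated *Ler* under FR light or treated *hy5-1* in darkness. No array of the same light shared these lowest values, whereas 184 probe sets under FR light and 315 in darkness had their lowest value on several arrays. Whether the low values came from a dim probe set was not tested.

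*WRKY47*, another group IIb gene, had a higher value with MeJA in every pair of arrays. Under FR light it stood at -0.34 in untreated *Ler* and -0.39 in untreated *hy5-1*, and at 0.34 in treated *Ler* and 0.52 in treated *hy5-1*. In darkness the untreated values were -0.39 in *Ler* and -0.59 in *hy5-1*, and the treated values 0.39 and 0.80. Treated and untreated arrays did not overlap in either light. Among all probe sets, 35.6% had MeJA ratios of 1 sign in all 4 pairs, and the share without overlap was not counted. The MeJA log2 ratios were 0.67 in *Ler* and 0.91 in *hy5-1* under FR light, and 0.78 in *Ler* and 1.39 in *hy5-1* in darkness. Of these ratios, that of dark-grown *hy5-1*, at 2.63-fold, reached 2-fold. The mean over the 4 pairs was 0.94 (standard error 0.18, 95% interval 0.47 to 1.41), or 1.92-fold, with an adjusted p of 0.066 in limma, just over the threshold of 0.05. With a variance trend on the mean of the centred values, which is not an expression level, the adjusted p was 0.042. The differences between genotypes were smaller and of mixed sign, with *hy5-1* to *Ler* ratios of -0.05 and 0.19 under FR light without and with MeJA, and -0.20 and 0.41 in darkness.

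*WRKY6*, the third group IIb gene, which acts in senescence, pathogen responses and phosphate homeostasis, varied little. Its values ran from -0.20 to 0.09 under FR light and from -0.07 to 0.12 in darkness. The MeJA ratios were -0.08 in *Ler* and -0.18 in *hy5-1* under FR light, and -0.11 and 0.19 in darkness. The mean of -0.04 had a 95% interval from -0.41 to 0.32, so 2-fold changes in either direction lay outside it. The group IIb genes found by the rule, 3 of the 8 listed, therefore had mean MeJA differences of -0.04, 0.77 and 0.94 for *WRKY6*, *WRKY42* and *WRKY47*. The interval of *WRKY42*, from -1.45 to 3.00, contains the other means.

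*WRKY53*, a group III gene that promotes leaf senescence and responds to salicylate and jasmonate in opposite ways, was the one gene with a higher value in *hy5-1* than in *Ler* in all 4 comparisons. Under FR light its values were -0.06 in untreated *Ler*, 0.50 in untreated *hy5-1*, -0.45 in treated *Ler* and 0.06 in treated *hy5-1*. In darkness they were -0.22 and 0.61 in untreated *Ler* and *hy5-1*, and -0.03 and 0.03 in the treated seedlings. The highest value in each light was that of untreated *hy5-1*. The *hy5-1* to *Ler* log2 ratios were 0.56 and 0.51 under FR light without and with MeJA, and 0.83 and 0.06 in darkness, and none reached 2-fold. Over the 4 pairs the mean was 0.49 (standard error 0.17, interval 0.04 to 0.94), or 1.40-fold, which did not pass in limma (adjusted p = 0.72). Among all probe sets, 16.6% had the same sign in all 4 genotype comparisons, which share no array with each other. The MeJA ratios of *WRKY53* were -0.39 in *Ler* and -0.44 in *hy5-1* under FR light, 0.20 in dark-grown *Ler* and -0.58 in dark-grown *hy5-1*, with a mean of -0.30 (interval -0.79 to 0.18, adjusted p = 0.39).

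*WRKY22*, a group IIe gene that acts downstream of a MAP kinase cascade in flagellin signaling, had its largest MeJA ratio in dark-grown *Ler*. The dark values were -0.40 in untreated *Ler*, -0.17 in untreated *hy5-1*, 0.43 in treated *Ler* and 0.17 in treated *hy5-1*, so treated arrays lay above untreated ones. How many of all probe sets were so separated in darkness was not counted. Under FR light the values were -0.06, 0.06, 0.26 and -0.14 in the same order, and the treated and untreated arrays overlapped. The MeJA ratios were 0.83 in *Ler* and 0.35 in *hy5-1* in darkness, and 0.32 and -0.19 under FR light. The ratio of *hy5-1* was below that of *Ler* by -0.51 under FR light and -0.48 in darkness, and the limma difference of -0.50 (standard error 0.26) had an adjusted p of 0.84. Between genotypes, the ratios ran from -0.40 to 0.23.

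*WRKY20*, a group I gene whose protein has a pair of WRKY domains, had MeJA ratios of 0.08 in *Ler* and 0.15 in *hy5-1* under FR light, and 0.28 and 0.20 in darkness. All were positive and small, with a mean of 0.18 (standard error 0.13, interval -0.16 to 0.52, adjusted p = 0.45). Its *hy5-1* to *Ler* ratios lay between -0.07 and 0.04, with a mean of -0.02 and an interval from -0.30 to 0.27, and so showed the least difference between genotypes of these genes.

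*NAC014*, the only NAC gene found by the rule, encodes a membrane-tethered factor, 1 of 13 listed in that class. Under FR light its values were 0.18 in untreated *Ler*, 0.24 in untreated *hy5-1*, -0.18 in treated *Ler* and -0.19 in treated *hy5-1*. In darkness they were 0.32 in untreated and 0.05 in treated *Ler*, and -0.05 and -0.31 in untreated and treated *hy5-1*. Treated arrays were below untreated ones of the same genotype in each light, and in darkness the groups overlapped across genotypes. The MeJA ratios were close to each other, at -0.35 and -0.43 under FR light and -0.27 and -0.26 in darkness for *Ler* and *hy5-1*. Their mean was -0.33 (standard error 0.13, interval -0.66 to 0.01, adjusted p = 0.22), and it did not pass in limma. The *hy5-1* to *Ler* ratios were 0.06 and -0.01 under FR light and -0.37 and -0.36 in darkness, without and with MeJA, and the mean in darkness of -0.36 (standard error 0.18) did not pass either (adjusted p = 0.999).

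**Figure D2:**
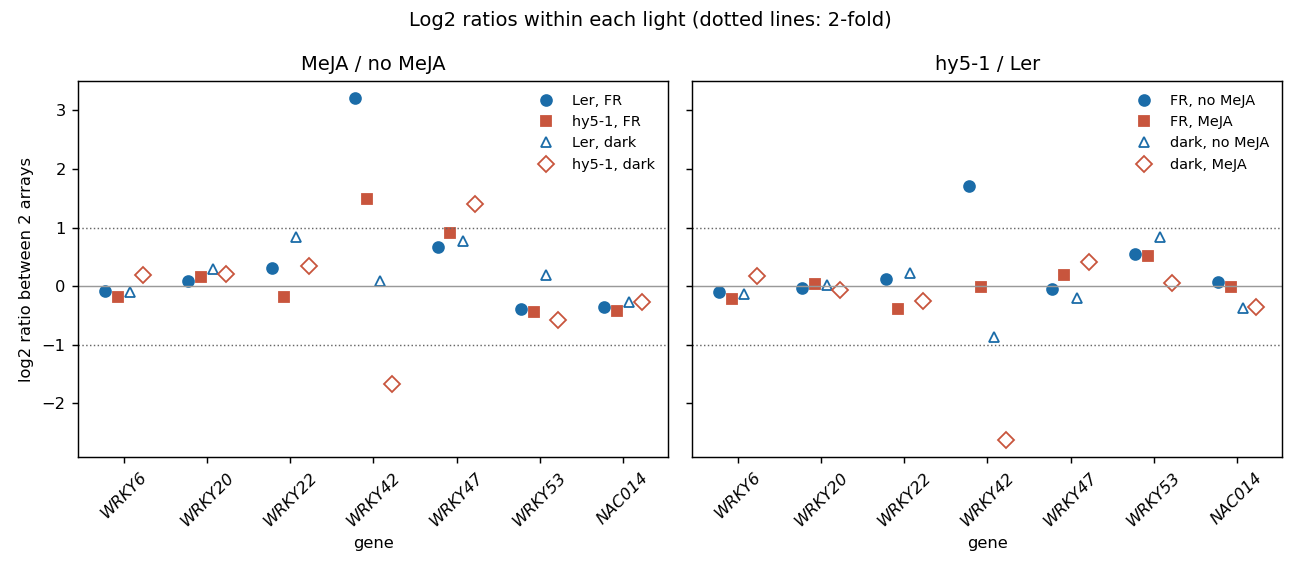
Log2 ratios of each gene between 2 arrays of the same light, MeJA over no MeJA on the left and *hy5-1* over *Ler* on the right, 1 point a ratio, with dotted lines at 2-fold. The points beyond the lines are 5 ratios of *WRKY42*, from -2.63 to 3.21, and 1 of *WRKY47*, at 1.39.

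Counted at 2-fold in either direction, the threshold of the study, 4 of 24 MeJA ratios of the WRKY genes and 0 of 4 of *NAC014* were reached. In *Ler* under FR light and in *hy5-1* under FR light this was *WRKY42* alone, 1 of 7 genes, where 24.0% and 24.6% of all probe sets passed. In dark-grown *Ler* no gene passed, against 24.3% of all probe sets. In dark-grown *hy5-1*, *WRKY42* and *WRKY47* passed in opposite directions, 2 of 7 genes, against 28.3%. The median ratio of the WRKY genes was 0.20 in *Ler* and -0.01 in *hy5-1* under FR light, and 0.24 and 0.20 in darkness, whereas the median of all probe sets lay between -0.09 and -0.06. Of the 7 genes, 3 had MeJA ratios of 1 sign in all 4 pairs, *WRKY20*, *WRKY47* and *NAC014*, and 35.6% of all probe sets did so.

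Of the *hy5-1* to *Ler* ratios, 2 of 24 for the WRKY genes and 0 of 4 for *NAC014* reached 2-fold. *WRKY42* was the gene that passed under FR light without MeJA and in darkness with MeJA, where 16.0% and 17.1% of all probe sets passed. None passed under FR light with MeJA, against 18.0%, or in darkness without MeJA, against 17.3%. The other genes had genotype ratios of at most 0.83 in size. With 7 genes, these counts are too small to set the WRKY and NAC genes apart from the array.

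**Figure D3:**
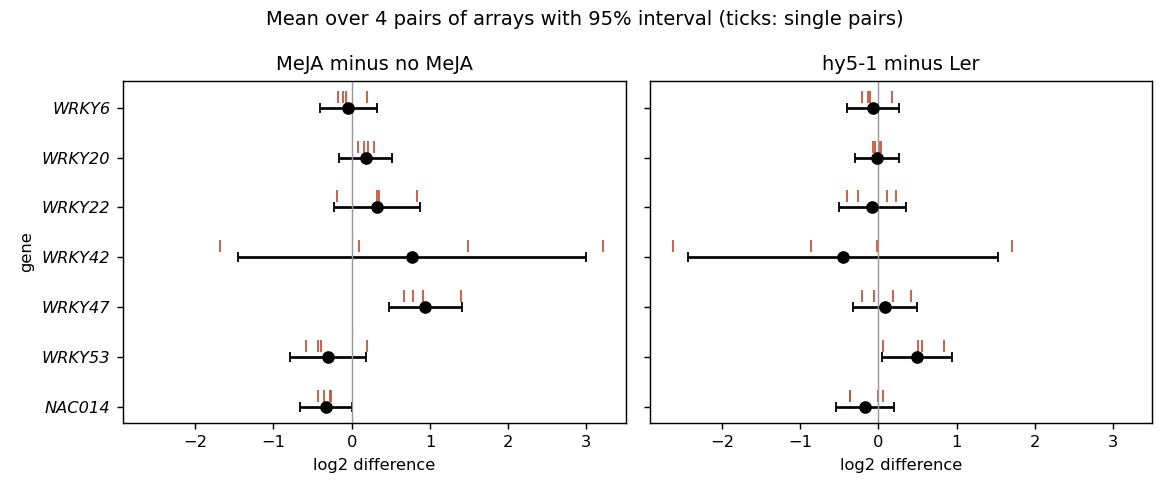
Mean log2 difference over the 4 pairs of arrays for MeJA (left) and genotype (right), with the 95% interval from limma as bars and the single pairs as ticks above each point. The MeJA interval of *WRKY47*, 0.47 to 1.41, and the genotype interval of *WRKY53*, 0.04 to 0.94, lie above 0 before adjustment over all probe sets.

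In the fits over pairs, limma called 995 probe sets for MeJA, 4.37% of all, and 0 of these 7 genes at an adjusted p under 0.05. Before adjustment 5408 probe sets, 23.8% of all, had a p under 0.05, and *WRKY47* was the 1 among these genes. The 995 calls needed all pairs, since without the *Ler* FR pair 34 were called and without the *hy5-1* FR pair, the *Ler* dark pair or the *hy5-1* dark pair 0. For genotype limma called 0%, with 1553 probe sets (6.83% of all) and, of these genes, *WRKY53* under 0.05 before adjustment. Within each light, and for the differences of the MeJA effect between genotypes and between lights, limma called 0 probe sets as well. Before adjustment, between 1198 and 4323 probe sets were under 0.05, or 5.27% to 19% of all. They included *WRKY42* and *WRKY47* for MeJA under FR light, *WRKY47* for MeJA in darkness and *WRKY42* for both differences. For genotype within a light they included none of the 7 genes. On simulated data with few changed probe sets, the fits within lights and for differences found 0% of log2 changes as large as 4. That rate depends on the share that changed, which is not known for these arrays. A gene that did not pass in these fits is not shown to be unchanged. Under FR light alone, the mean MeJA difference was 2.35 for *WRKY42* (interval 0.36 to 4.34, adjusted p = 0.26) and 0.79 for *WRKY47* (interval 0.07 to 1.52, adjusted p = 0.27). In darkness alone, it was 1.09 for *WRKY47* (interval 0.36 to 1.81, adjusted p = 0.18) and -0.80 for *WRKY42* (interval -2.79 to 1.19).

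One further WRKY gene was outside the rule because the array lists it by another symbol. *ZAP1*, also called WRKY1, a group I gene, had MeJA ratios of 0.32 in *Ler* and 0.25 in *hy5-1* under FR light, and 0.62 and 0.35 in darkness, with a mean of 0.38 (standard error 0.14, adjusted p = 0.20). Its *hy5-1* to *Ler* ratios lay between -0.13 and 0.36.

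Of 21 listed partners of WRKY factors and genes of salicylate signaling, none had a probe set paired with it alone, and of 17 listed NAC targets 2 did. Whether probe sets without a pairing read the other listed genes was not checked. *BSMT1*, which encodes a methyltransferase of salicylate and benzoate, had MeJA ratios of 3.63 in *Ler* and 1.76 in *hy5-1* under FR light, and 0.42 and 4.15 in darkness. It was above 2-fold in 3 of 4 pairs, with a mean of 2.49 (standard error 0.70) that did not pass in limma (adjusted p = 0.13). The senescence-associated sugar transporter gene *SAG29* had ratios of opposite sign in the genotypes, -0.61 in *Ler* and 1.10 in *hy5-1* under FR light and -1.57 and 0.56 in darkness (adjusted p = 0.90 for the mean). Of 10 listed markers of seed maturation 2 had such a probe set. *M10* had a mean MeJA difference of 6.85 (standard error 0.44, adjusted p = 0.0092 in limma), while *M17* ran from -6.26 in dark-grown *Ler* to 4.93 in dark-grown *hy5-1*. Their part in the ratios of the WRKY and NAC genes was not tested.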

How the data were processed

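The deposited table holds 22810 probe sets on 8 arrays as values made by the authors, which were read as log2. The submitters' processing notes name MAS5, without a version, for summarising probes, and normalization was done in GeneSpring GX according to the methods. How arrays were scaled and whether low signals were raised to a limit were not stated in these sources. The median of each probe set over the 4 arrays of a light was checked to be 0 to the rounding of the table. After 64 control probe sets were left out, 22746 were analysed. Symbols came from the array annotation, and updating them to RefSeq names (TAIR10.1) gave the same 7 genes.

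Ratios were differences of log2 values within a light. The effects of MeJA and genotype over the 4 pairs (3 residual degrees of freedom), within each light (2), and the difference of the MeJA effect between genotypes (1) and lights (2) were fitted across all probe sets in limma 3.58.1 (R 4.3.3) with pairs as blocks, moderated variances and p-values adjusted by Benjamini-Hochberg (threshold 0.05). Intervals are 95% and moderated. They treat genotypes and lights as repeats. In simulated data of 22746 probe sets, 67, 67 and 66 were given log2 changes of 1, 2 and 4. The MeJA fit found 1.49%, 44.8% and 71.2% of these, the genotype fit 0%, 44.8% and 66.7%, and the other fits 0% at each size. These rates depend on the share of probe sets changed, which is not known for these arrays. The genes, gene lists and tests were chosen with earlier results of these data known. Genes were named by a rule covering calls, 2-fold ratios and known jasmonate roles, and all 7 are given. The alternatives were quantile and median scaling, folds of 1.5 and 3, a variance trend, leaving out each pair, and leaving out tied lowest values.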

Additional observations from a re-analysis of the deposited data

Results flagged for a closer look

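In *hy5-1*, *WRKY42* had opposite MeJA ratios in the 2 lights, with a log2 ratio of 1.48 under FR light and -1.68 in darkness, each past 2-fold. Such an opposite response in *hy5-1* was found for 842 probe sets, 3.7% of all. The difference of the *WRKY42* MeJA effect between lights, over both genotypes, was 3.14 (standard error 0.96) and did not pass in limma (adjusted p = 0.66). In *hy5-1* alone it was 3.16 and was not tested. The value in darkness rests on the low array of treated *hy5-1*.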

How the results depend on the processing

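The number of WRKY ratios counted depended on the threshold. At 1.5-fold, 8 of 24 MeJA ratios and 4 of 24 genotype ratios were reached, and at 3-fold 2 MeJA ratios. Read as natural logs, an alternative chosen after seeing the data, the values gave 7 and 4. Quantile normalization within each light and median scaling left every 2-fold count the same. With a variance trend, limma called 1 of the 7 genes for MeJA, *WRKY47* (adjusted p = 0.042), and its adjusted p ran from 0.042 to 0.20 over the alternatives while its mean stayed between 0.79 and 1.03. With 1 pair of arrays left out, the probe sets called for MeJA ranged from 0, without any 1 of 3 pairs, to 34, without the *Ler* FR pair, and none of the 7 genes was called. In these fits the mean MeJA difference of *WRKY42* ranged down to -0.04, without the *Ler* FR pair, and up to 1.59, without the *hy5-1* dark pair, and its mean genotype difference of -0.45 ranged from -1.17, without the untreated FR pair, to 0.27, without the dark MeJA-treated pair. No replicates exist within a condition. The labels give no replicate numbers, so no fit with replicates as blocks was made, and the pairs that serve as blocks are arrays of different conditions. The number of arrays limits the precision, and signal over background cannot be read from centred values.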
